A study of Mus musculus with 16 samples.

Results

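*Dyrk1a*, *Rcan1*, *Rcan2*, the calcineurin subunit genes *Ppp3ca*, *Ppp3cb* and *Ppp3r1*, and the NFAT factor genes *Nfatc1*, *Nfatc3*, *Nfatc4* and *Nfat5* were followed in cultured mouse keratinocytes. They were taken as every probe of the array whose gene symbol was one of these 10 names, which gave 22 of 25697 probes and 10 of the 16593 genes with a probe. RNA came from primary keratinocytes harvested from 1-day-old FVBN pups, either Ts (trisomic for the Ts1Rhr segment of chromosome 16) or WT (euploid). Each genotype was left untreated (NT) or given 0.2 μM TPA for 12 h, so that the 16 arrays formed the groups Ts-NT, WT-NT, Ts-TPA and WT-TPA with 4 arrays each. TPA, a phorbol ester, switches on protein kinase C and is used as a promoter of skin tumors. Per the study's methods a keratinocyte line came from 1 pup that was genotyped, while no sex is given. In the main genotype comparisons, p-values measure the spread between arrays within the 4 groups. Arrays from the same culture were counted there as independent. For TPA within a genotype, p-values measure how far the change varied between cultures. The Ts1Rhr segment is a duplication that runs from *Cbr1* to *Fam3b*, so all cells of Ts mice carry 3 copies of the genes in it and no single gene was varied alone.

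Calcineurin is a phosphatase that calcium and calmodulin switch on. It removes phosphates from the cytoplasmic NFAT factors, which then enter the nucleus and act on their target genes together with partners such as AP-1. DYRK1A is a kinase that phosphorylates NFAT factors and so favors their return to the cytoplasm, and RCAN1 binds calcineurin and inhibits it, so both gene products act against the pathway. *Dyrk1a* and *Rcan1* both lie on mouse chromosome 16 and both have human orthologs on the chromosome that is trisomic in Down syndrome, but in the gene order of that chromosome *Dyrk1a* lies inside the Ts1Rhr segment and *Rcan1* lies outside it. *Dyrk1a* is therefore trisomic in Ts cells, and *Rcan1*, the calcineurin genes and the NFAT genes are disomic. In keratinocytes, calcineurin inhibitors such as cyclosporin A are known to act on growth and differentiation.

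Of the 10 genes, 8 had a probe that passed the filter on detection, with 13 of their 22 probes, and 0 of them passed the test in the genotype comparisons, in TPA against untreated cells of 1 genotype or in the difference between these responses, where 0% to 2.66% of all genes passed. Levels are given as log2 signal after variance stabilization, and a probe was detected on an array where its detection p-value was 0.01 or less. Arrays of Ts cells were brighter in background than arrays of WT cells: the median raw signal of undetected probes lay at 174.9 to 203.3 for Ts-NT and 137.8 to 147.5 for WT-NT, and 198.8 to 238.9 on Ts-TPA arrays and 139.5 to 150.9 on WT-TPA arrays. Over all 8317 probes tested, the median log2 change between Ts and WT was -0.16 in untreated cells and -0.20 after TPA, so genotype changes are given below relative to that median, while each p-value is that of the fitted difference before it was taken off. Of 10 keratinocyte markers with a probe 9 passed the filter, *Krt15* being detected on no array, and their mean log2 signal was 10.26 to 11.11 in Ts-NT, 10.53 to 11.4 in WT-NT, 10.37 to 11.04 in Ts-TPA and 10.63 to 11.19 in WT-TPA. Markers of fibroblasts averaged 6.72 to 7.54 in Ts-NT, 6.51 to 7.1 in WT-NT, 6.78 to 7.16 in Ts-TPA and 6.56 to 7.17 in WT-TPA over the 6 of 11 that passed the filter (*Lum* and *Pdgfra* were detected on no array). In untreated Ts against WT cells the median change of these 6 was 0.47 relative to that of all genes, with 5 of 6 above it. Those of melanocytes averaged 9.91 to 10.36 in Ts-NT, 9.71 to 10.66 in WT-NT, 9.64 to 10.24 in Ts-TPA and 9.83 to 10.53 in WT-TPA over 5 of 6. No marker of endothelial, immune or skeletal muscle cells passed the filter. The part of background brightness and of other cell types in the differences below was not tested.

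**Figure D1:**
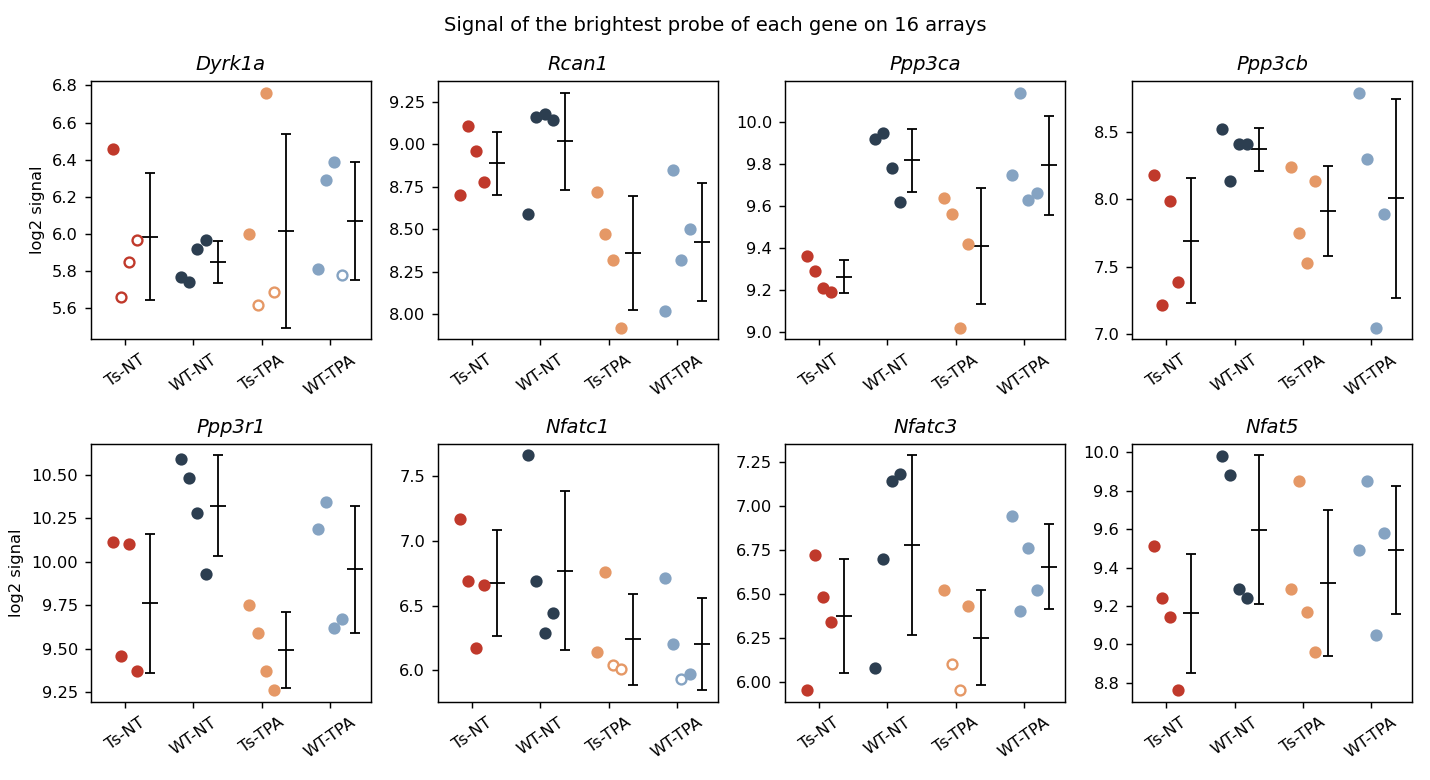
Log2 signal of the brightest probe of each of the 8 measured genes on 16 arrays, with one panel per gene and the groups Ts-NT, WT-NT, Ts-TPA and WT-TPA on the x axis (4 arrays each). Filled points were detected and open points were not, and the bars beside them are the mean ± SD. *Ppp3ca* in Ts-NT (9.19 to 9.36) lay below all WT-NT arrays (9.62 to 9.95), and most *Rcan1* points after TPA lay below the untreated ones.

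*Dyrk1a*, the trisomic kinase gene, was measured by 1 probe that lay close to the detection limit in every group. Its log2 signals were 6.46, 5.66, 5.85 and 5.97 in Ts-NT and 5.77, 5.74, 5.92 and 5.97 in WT-NT, and the groups overlapped. Ts-NT averaged 5.99 ± 0.34 and WT-NT 5.85 ± 0.11 (SD, n = 4 each). One Ts-NT array stood above all WT-NT arrays and the other Ts-NT arrays lay among or below them. Relative to all probes *Dyrk1a* was 0.30 higher in Ts-NT, with a 95% interval of -0.23 to 0.82 and an adjusted p of 0.861 (limma). This interval holds both no difference and 0.58, the log2 ratio of 3 copies to 2. Near background the scale used is steeper than log2 of the raw signal, so 3 copies against 2 need not give 0.58. The interval therefore does not decide on dosage. After TPA the signals were 6.0, 5.62, 6.76 and 5.69 in Ts-TPA and 5.81, 6.29, 6.39 and 5.78 in WT-TPA. Again the groups overlapped, and the difference relative to all probes was 0.15 (95% interval -0.37 to 0.68, adjusted p = 0.945, limma). The sign of that value is not settled, as it was -0.05 under neqc normalization and -0.12 without Ts-TPA replicate 3, which holds the 6.76.

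The number of arrays that detected *Dyrk1a* ran against its mean signal in untreated cells. There 1 of 4 Ts-NT arrays detected it, against 4 of 4 from WT-NT, and after TPA it was 2 of 4 Ts-TPA arrays, against 3 of 4 WT-TPA arrays. The detection limit of an array, taken as the lowest log2 signal among its detected probes, lay at 5.9 to 6.17 for Ts-NT and 5.6 to 5.84 for WT-NT, and 5.9 to 6.26 in Ts-TPA and 5.69 to 6.1 in WT-TPA. The *Dyrk1a* signal minus the limit of its array came to 0.56, -0.40, -0.22 and -0.20 in Ts-NT and 0.17, 0.07, 0.08 and 0.18 in WT-NT. After TPA it was 0.10, -0.62, 0.60 and -0.57 in Ts-TPA and 0.12, 0.53, 0.29 and -0.09 in WT-TPA. Since the limit is set by the detection calls, the signs of these margins restate the calls. Every *Dyrk1a* signal lay close to its limit. The limits were higher on the Ts-NT arrays, where detections were fewer, and whether the one accounts for the other was not tested.

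**Figure D2:**
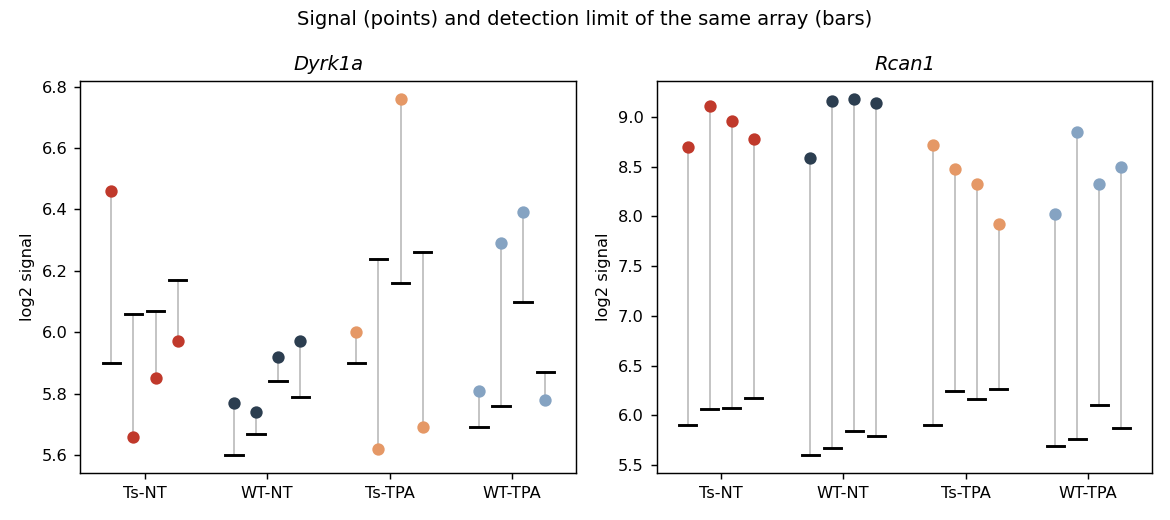
Log2 signal of *Dyrk1a* (left) and of the brightest *Rcan1* probe (right) on each array as points, and the detection limit of the same array as a bar, for Ts-NT, WT-NT, Ts-TPA and WT-TPA. *Dyrk1a* minus the limit ran from -0.62 to 0.60, and *Rcan1* lay 1.66 to 3.49 above the limit on all 16 arrays.

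*Dyrk1a* was 1 of 14 genes of the Ts1Rhr segment that passed the filter, of 27 with a probe. In untreated cells 13 of these 14 genes changed by more than the median gene did, and the median of the 14 was 0.26 above it, with 0 genes past the test, against 0.066% of all genes, and 2 higher at an unadjusted p under 0.05, against 2.42% of all genes. After TPA 11 of the 14 genes lay above the median gene and 3 below it, and their median was 0.19 above it. There 0 passed the test, against 0.0165% of all genes, and 2 were higher at an unadjusted p under 0.05, against 1.6%. *Pigp*, which acts in the synthesis of GPI anchors, had the lowest p of the segment in any comparison, with 9.65 in Ts-NT and 8.74 in WT-NT (adjusted p = 0.101, limma). *Hmgn1*, which encodes a nucleosome-binding protein, had the next lowest p, but in TPA against untreated WT cells, with 11.28 in WT-TPA and 11.89 in WT-NT (adjusted p = 0.129, limma). Between genotypes in untreated cells it was the 1 gene of the segment on the other side of the median, with 11.41 in Ts-NT and 11.89 in WT-NT (adjusted p = 0.558, limma). *Dyrk1a*, at 0.30 above the median of all probes, was close to the median of its segment, but its value was 0.04 under quantile normalization, 0.09 with the authors' values, 0.12 under neqc and 0.17 with no detection filter, and 0.16 without Ts-NT replicate 1. The other DYRK genes are disomic. *Dyrk3* averaged 5.98 in Ts-NT and 6.46 in WT-NT (adjusted p = 0.465, limma) and *Dcaf7*, which encodes a scaffold protein that binds DYRK1A, averaged 8.81 in WT-TPA and 9.21 in WT-NT (adjusted p = 0.244, limma).

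RefSeq (build GRCm38.p6) lists 3 starts for *Dyrk1a* and 2 for *Rcan1*, and windows of 250 bases before each start were searched for letters bound by factors of the pathway or of TPA signaling. The core of NFAT sites was searched as GGAAA and, for the other strand, as TTTCC. The AP-1 or TPA response element was searched as TGACTCA and, for the other strand, as TGAGTCA. The cAMP response element was searched as TGACGTCA, which reads the same on both strands. Across all 32851 windows, GGAAA was found in 55.6%, TGACTCA in 4.46% and TGACGTCA in 1.55%. The first *Dyrk1a* window and both *Rcan1* windows are shown because these are the genes that set the trisomic against the disomic inhibitor. Capitals mark the letters searched for.
*Dyrk1a*, first start, chr16:94569956-94570205, plus strand: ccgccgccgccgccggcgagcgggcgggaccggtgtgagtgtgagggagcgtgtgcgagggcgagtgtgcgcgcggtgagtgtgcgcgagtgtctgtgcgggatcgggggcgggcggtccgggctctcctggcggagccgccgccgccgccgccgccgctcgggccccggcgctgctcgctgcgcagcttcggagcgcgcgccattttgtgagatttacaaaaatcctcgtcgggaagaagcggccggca
*Rcan1*, first start, chr16:92466170-92466419, minus strand: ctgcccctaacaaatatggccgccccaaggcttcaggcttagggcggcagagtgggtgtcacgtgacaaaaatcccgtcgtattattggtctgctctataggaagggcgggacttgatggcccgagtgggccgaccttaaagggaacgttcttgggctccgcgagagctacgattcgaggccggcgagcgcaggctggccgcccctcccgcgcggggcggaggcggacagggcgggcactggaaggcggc
*Rcan1*, second start, chr16:92400079-92400328, minus strand: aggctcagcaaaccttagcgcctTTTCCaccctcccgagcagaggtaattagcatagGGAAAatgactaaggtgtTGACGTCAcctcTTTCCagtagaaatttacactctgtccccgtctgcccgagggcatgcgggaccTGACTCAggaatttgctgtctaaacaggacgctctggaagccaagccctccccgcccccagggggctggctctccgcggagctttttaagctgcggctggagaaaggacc
The first *Dyrk1a* window, which is rich in CCG repeats, and the first *Rcan1* window held none of the letters. Of the other *Dyrk1a* windows, the second held GGAAA once, and the third held GGAAA once and TTTCC once. The second *Rcan1* window, inside the gene, held GGAAA or TTTCC 3 times, TGACGTCA once, at 175 bases before the start, and TGACTCA once, at 110 bases before it. TGACGTCA lies between 2 of the NFAT cores, which begin at 193 and 163 bases before the start, and none of these letters overlap. No other window of the members held TGACGTCA, and 1 other, of *Rcan2*, held TGACTCA. In all, 8 of the 10 genes matched the RefSeq table with 14 windows, 8 of which held GGAAA or TTTCC, and *Ppp3ca* and *Nfatc1* were not among them. A match describes the letters and not a bound site, and which start the array's *Rcan1* probes follow was not determined.

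*Rcan1*, the gene of the disomic calcineurin inhibitor, did not pass the test between the genotypes, and the mean of its brightest probe was lower after TPA in both. Its brightest probe was detected on all 16 arrays, with log2 signals of 8.70, 9.11, 8.96 and 8.78 in Ts-NT and 8.59, 9.16, 9.18 and 9.14 in WT-NT. Most of the WT-NT values lay above all Ts-NT values, but WT-NT replicate 1 lay below them all. The means were 8.89 ± 0.18 in Ts-NT and 9.02 ± 0.29 in WT-NT (SD, n = 4 each), a change relative to all probes of 0.03 (95% interval -0.44 to 0.49, adjusted p = 0.849, limma). That value was -0.13 without WT-NT replicate 1. After TPA the values were 8.72, 8.47, 8.32 and 7.92 in Ts-TPA and 8.02, 8.85, 8.32 and 8.50 in WT-TPA. The groups overlapped throughout their range, with 8.36 ± 0.33 in Ts-TPA and 8.42 ± 0.35 in WT-TPA (SD, n = 4 each) and a relative difference of 0.14 (95% interval -0.33 to 0.60, adjusted p = 0.917, limma). The order of the group means was WT-NT, Ts-NT, WT-TPA and Ts-TPA, in which the first pair and the last pair of neighbors differed by less than their SDs.

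The second *Rcan1* probe was dim, detected on 8 of 16 arrays, and averaged 5.85 in Ts-NT, 5.86 in WT-NT, 5.99 in Ts-TPA and 5.68 in WT-TPA. It did not pass the test in any comparison. *Rcan2*, which encodes a second calcineurin inhibitor of the same family, had 3 probes and none was detected on any array, so no change is given for it.

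The catalytic subunit genes *Ppp3ca* and *Ppp3cb* and the regulatory subunit gene *Ppp3r1* were lower in Ts-NT than in WT-NT by 0.40 to 0.52 relative to all probes, a difference that did not pass the correction for all probes tested. The brightest *Ppp3ca* probe gave 9.36, 9.29, 9.21 and 9.19 in Ts-NT and 9.92, 9.95, 9.78 and 9.62 in WT-NT. Every Ts-NT array lay below every WT-NT array, as was the case for 7.26% of all genes (1.47% were so higher). *Ppp3cb* gave 8.18, 7.22, 7.99 and 7.39 in Ts-NT and 8.52, 8.14, 8.41 and 8.41 in WT-NT, with only the highest Ts-NT array above the lowest WT-NT array. *Ppp3r1* gave 10.11, 9.46, 10.10 and 9.37 in Ts-NT and 10.59, 10.48, 10.28 and 9.93 in WT-NT, and its groups overlapped in the same way, since a pair of Ts-NT arrays stood above the lowest WT-NT array. The relative changes were -0.40 for *Ppp3ca* (95% interval -0.78 to -0.01), -0.52 for *Ppp3cb* (-1.16 to 0.13) and -0.40 for *Ppp3r1* (-0.89 to 0.10). Adjusted p-values over all probes were 0.227 for *Ppp3ca*, 0.381 for *Ppp3cb* and 0.341 for *Ppp3r1* (limma), and the unadjusted p-values were 0.00721, 0.0411 and 0.0294 in that order. With the replicate number as a block, the adjusted p-values were 0.0862 for *Ppp3ca*, 0.174 for *Ppp3cb* and 0.133 for *Ppp3r1*, while 94 genes passed. For each gene that was the lowest adjusted p of the 22 alternatives tried. With 1 array left out the adjusted p ran from 0.219 to 0.48 for *Ppp3ca*, 0.255 to 0.644 for *Ppp3cb* and 0.248 to 0.643 for *Ppp3r1* (limma). In this comparison without the block, 0 of the 8 measured members passed the test, against 0.066% of the 6063 genes (4 genes), and 3 members were lower at an unadjusted p under 0.05, against 12.9% of all genes lower and 2.42% higher.

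After TPA the difference between the genotypes remained in sign for *Ppp3ca* and *Ppp3r1* and not for *Ppp3cb*. *Ppp3ca* gave 9.64, 9.56, 9.02 and 9.42 in Ts-TPA and 9.75, 10.14, 9.63 and 9.66 in WT-TPA. *Ppp3r1* gave 9.75, 9.59, 9.37 and 9.26 in Ts-TPA and 10.19, 10.34, 9.62 and 9.67 in WT-TPA. For both genes the highest Ts-TPA array lay above the lowest WT-TPA array, and the relative changes were -0.18 for *Ppp3ca* (adjusted p = 0.343) and -0.26 for *Ppp3r1* (adjusted p = 0.369, limma). *Ppp3cb* gave 8.24, 7.75, 7.53 and 8.14 in Ts-TPA and 8.79, 8.30, 7.05 and 7.89 in WT-TPA, with the Ts-TPA arrays inside the wide range of WT-TPA and a relative change of 0.11 (adjusted p = 0.915, limma). None of the 8 measured members passed the test here, against 0.0165% of the 6063 genes (1 gene), and at an unadjusted p under 0.05 2 members had a probe that was lower, against 15.9% of all genes lower and 1.6% higher. Those were second probes, of *Ppp3ca* and of *Nfatc1*. That of *Ppp3ca* passed the filter only through WT arrays, where it was higher, so the filter favored its direction and it gives no support. With the replicate number as a block 141 genes and 0 members passed.

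Averaged over untreated and TPA arrays, in a test added after the data were seen, the relative change was -0.29 for *Ppp3ca* (adjusted p = 0.106), -0.32 for *Ppp3r1* (0.152) and -0.20 for *Ppp3cb* (0.418, limma), where 0.528% of all genes passed, all lower. Those p-values include the shift of all probes. With arrays centred on their median, the adjusted p-values were 0.421 for *Ppp3ca*, 0.453 for *Ppp3r1* and 0.811 for *Ppp3cb* (limma). A second *Ppp3ca* probe was dim and passed the filter only through WT arrays. In untreated cells it was detected by 0 of 4 Ts arrays and 3 of 4 WT arrays, and after TPA 1 of 4 Ts-TPA and 2 of 4 WT-TPA arrays, with means of 5.50 in Ts-NT, 6.24 in WT-NT, 5.24 in Ts-TPA and 6.44 in WT-TPA. As no Ts-NT array detected it, its Ts-NT mean is not a measured level. With the detection limit of each Ts-NT array put in where the probe lay under it, the Ts-NT mean was 1.14-fold lower. That value was not taken relative to all probes, and it is not an established minimum. The Ts-NT and WT-NT arrays overlapped, the interval of the fitted difference crossed 0, and its adjusted p was 0.574 (limma). The third *Ppp3ca* probe was detected on 1 array, of Ts-NT. *Ppp3cc*, the gene of the catalytic subunit found mainly in testis, was detected on no array, and *Ppp3r2* was not analysed here.

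**Figure D3:**
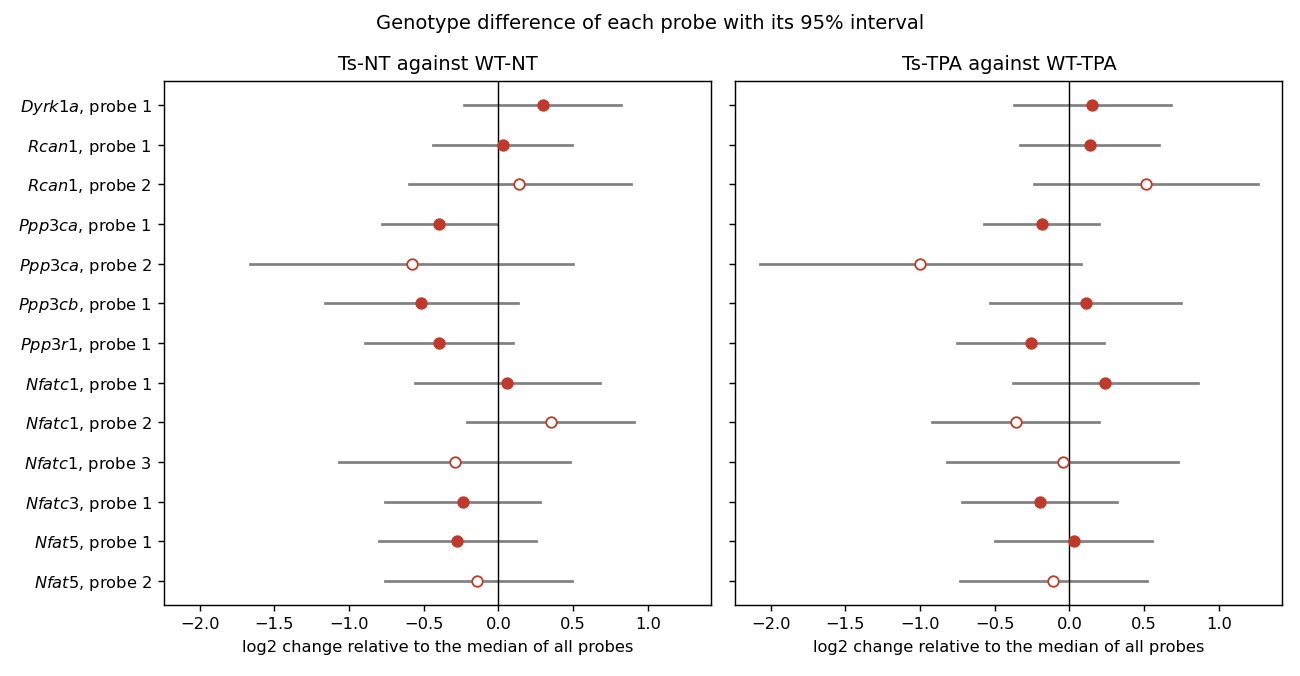
Log2 change of each of the 13 probes past the filter, relative to the median of all probes, with its 95% interval, for Ts-NT against WT-NT (left) and Ts-TPA against WT-TPA (right). Filled points are the brightest probe of a gene and open points its other probes. The brightest probes of the calcineurin genes lay at -0.40, -0.52 and -0.40 in untreated cells and at -0.18, 0.11 and -0.26 after TPA, and *Dyrk1a* and *Rcan1* had intervals that crossed 0 in both.

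Among the NFAT genes, *Nfatc1*, *Nfatc3* and *Nfat5* were measured and none passed the test between genotypes. *Nfat5*, whose product responds to osmotic stress and is not controlled by calcineurin, gave 9.51, 9.24, 9.14 and 8.76 in Ts-NT and 9.98, 9.88, 9.29 and 9.24 in WT-NT. The Ts-NT arrays overlapped the lower WT-NT arrays, with a relative change of -0.28 (95% interval -0.80 to 0.25, adjusted p = 0.483, limma). After TPA it gave 9.29, 9.85, 9.17 and 8.96 in Ts-TPA and 9.49, 9.85, 9.05 and 9.58 in WT-TPA, a relative change of 0.03 (adjusted p = 0.781, limma). *Nfatc3* gave 5.95, 6.72, 6.48 and 6.34 in Ts-NT and 6.08, 6.70, 7.14 and 7.18 in WT-NT, and 6.52, 6.10, 5.95 and 6.43 in Ts-TPA and 6.94, 6.40, 6.76 and 6.52 in WT-TPA. Both pairs of groups overlapped, with relative changes of -0.24 in untreated cells (adjusted p = 0.516) and -0.20 after TPA (adjusted p = 0.458, limma). *Nfatc1*, known in skin as a marker of hair follicle stem cells, gave 7.17, 6.69, 6.17 and 6.66 in Ts-NT and 7.66, 6.69, 6.29 and 6.44 in WT-NT. These overlapped almost fully, with a relative change of 0.06 (adjusted p = 0.924, limma). *Nfatc1* had 6 probes, 3 of them detected on no array, and the others did not move together: relative to all probes they were 0.06, 0.35 and -0.29 in Ts-NT against WT-NT and 0.24, -0.36 and -0.04 in Ts-TPA against WT-TPA. *Nfatc4* was detected on no array. The remaining NFAT factor gene, *Nfatc2*, had 5 probes and none past the filter.

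TPA was followed within each culture, as the difference between the TPA-treated and the untreated array of the same genotype and number, since the study's methods pair these arrays by the source of the cells. After group means were taken off, such pairs correlated at 0.07 to 0.31 over probes in Ts and 0.19 to 0.45 in WT cells, and arrays of the same number and treatment correlated at 0.24 to 0.57 across genotypes. The Ts arrays numbered 4 (0.07) did not correlate best with each other. The brightest *Rcan1* probe, unlike the second probe given above, was lower after TPA in 7 of 8 cultures: the changes were 0.01, -0.64, -0.64 and -0.86 in Ts cultures 1 to 4 and -0.56, -0.31, -0.86 and -0.64 in WT cultures 1 to 4. The fitted change was -0.53 ± 0.22 in Ts cells (SE, n = 4 cultures, 0.693-fold, adjusted p = 0.352) and -0.59 ± 0.17 in WT cells (SE, n = 4 cultures, 0.663-fold, adjusted p = 0.109, limma), where the medians of all probes were -0.09 in Ts and -0.05 in WT. The unadjusted p-values were 0.0351 in Ts and 0.00662 in WT cells (limma). All 4 WT cultures were lower, as was the case for 16.4% of all genes. Under quantile normalization the WT change passed the test (-0.40, adjusted p = 0.0498). The responses of both genotypes differed by 0.06, Ts minus WT (95% interval -0.51 to 0.64, adjusted p = 1.000, limma).

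The brightest *Nfatc1* probe was also lower after TPA on average. Its signals were 6.14, 6.76, 6.04 and 6.01 in Ts-TPA, against the Ts-NT values above, and 6.71, 6.20, 5.93 and 5.97 in WT-TPA. It was lower in 7 of 8 cultures: the changes were -1.03, 0.07, -0.13 and -0.65 in Ts cultures 1 to 4 and -0.95, -0.49, -0.36 and -0.48 in WT cultures 1 to 4. The change was -0.43 ± 0.24 in Ts cells (SE, n = 4 cultures, adjusted p = 0.480) and -0.57 ± 0.18 in WT cells (SE, n = 4 cultures, adjusted p = 0.126, limma). Fewer arrays detected it after TPA, with 2 of 4 Ts-TPA arrays against 4 of 4 Ts-NT arrays and 3 of 4 WT-TPA arrays against 4 of 4 WT-NT arrays. The other *Nfatc1* probes past the filter did not follow it in all cells, as one gave 0.49 in WT cells (adjusted p = 0.329) and -0.27 in Ts cells (adjusted p = 0.655, limma), and one -0.43 in WT and -0.22 in Ts cells.

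Within 1 genotype no member passed the test for TPA. In WT cells 2.66% of the 6063 genes passed (161, of which 96 were higher and 65 lower), and 0 of 8 members, with 2 members lower at an unadjusted p under 0.05, against 12.5% of all genes lower and 9.27% higher. In Ts cells 1.06% of genes passed (64, of which 42 were higher and 22 lower), and 0 of 8 members, with 1 lower at an unadjusted p under 0.05, against 10.1% of all genes lower and 5.29% higher. For the difference in TPA response between genotypes, 0% of genes and 0 of 8 members passed, with 0 members at an unadjusted p under 0.05, where the response of Ts was higher for 1.8% of all genes and lower for 2.82% (limma).

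Over all 8 cultures, in a test added after the results within each genotype were known, *Rcan1* and *Nfatc1* were the members past the threshold. The mean response of the brightest *Rcan1* probe to TPA was -0.56 ± 0.13 (SE, 95% interval -0.85 to -0.27, adjusted p = 0.0204, limma with the cultures as blocks) and that of the brightest *Nfatc1* probe was -0.50 ± 0.15 (SE, 95% interval -0.82 to -0.19, adjusted p = 0.0481, limma). In this test 10.7% of the 6063 genes passed (4.4% higher and 6.28% lower), and 2 of 8 members, both lower. These tests take the 8 cultures as independent, although arrays of the same number deviated together across genotypes. With both genotypes averaged within each number, which leaves 4 units, 242 genes and 0 of 8 members passed, and the adjusted p was 0.0763 for *Rcan1* and 0.136 for *Nfatc1* (limma). The *Rcan1* call was also lost with no detection filter (adjusted p = 0.088) and without Ts culture 3 (adjusted p = 0.0557), Ts culture 4 (0.0558), WT culture 3 (0.0696) or WT culture 4 (0.0612), with values of -0.65 to -0.51 over all cultures left out, and it held under the other normalizations at -0.51 to -0.36. The *Nfatc1* call was lost without any one culture other than Ts culture 2 (adjusted p of 0.0335 without it and up to 0.108 without another), with values of -0.59 to -0.40. It was also lost with no detection filter (adjusted p = 0.167) and under each other normalization, at -0.52 under neqc, -0.44 with arrays centred, and -0.18 both under quantile normalization and with the authors' values. *Ppp3r1* was lower in 7 of 8 cultures, with a mean response of -0.32 ± 0.13 (SE, adjusted p = 0.156, limma). The share of all genes that were lower in 7 of 8 cultures was not counted. That count therefore only describes *Rcan1*, *Nfatc1* and *Ppp3r1*.

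The remaining members gave no common direction after TPA. *Dyrk1a* changed by -0.47, -0.04, 0.92 and -0.29 in Ts cultures 1 to 4 and by 0.04, 0.55, 0.47 and -0.19 in WT cultures 1 to 4, with a mean of 0.12 (95% interval -0.23 to 0.47, adjusted p = 0.682, limma). It thus changed in both directions within each genotype. *Ppp3ca* had a mean response of 0.06 (95% interval -0.20 to 0.32), *Nfat5* of 0.03 (-0.27 to 0.33), *Ppp3cb* of -0.07 (-0.48 to 0.34) and *Nfatc3* of -0.12 (-0.52 to 0.27). The widest difference in TPA response between genotypes among the brightest probes was that of *Ppp3cb*, which changed by 0.22 in Ts cells and -0.36 in WT cells, a difference of 0.58 (95% interval -0.24 to 1.40, adjusted p = 1.000, limma). That difference was 0.25 without WT culture 3, where the WT change was -0.03, and 0.81 without Ts culture 3, where the Ts change was 0.45. Without Ts culture 4 the Ts change was 0.04, and the WT change was -0.57 without WT culture 1. Under quantile normalization the difference was 0.36 and with the authors' values 0.35.

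**Figure D4:**
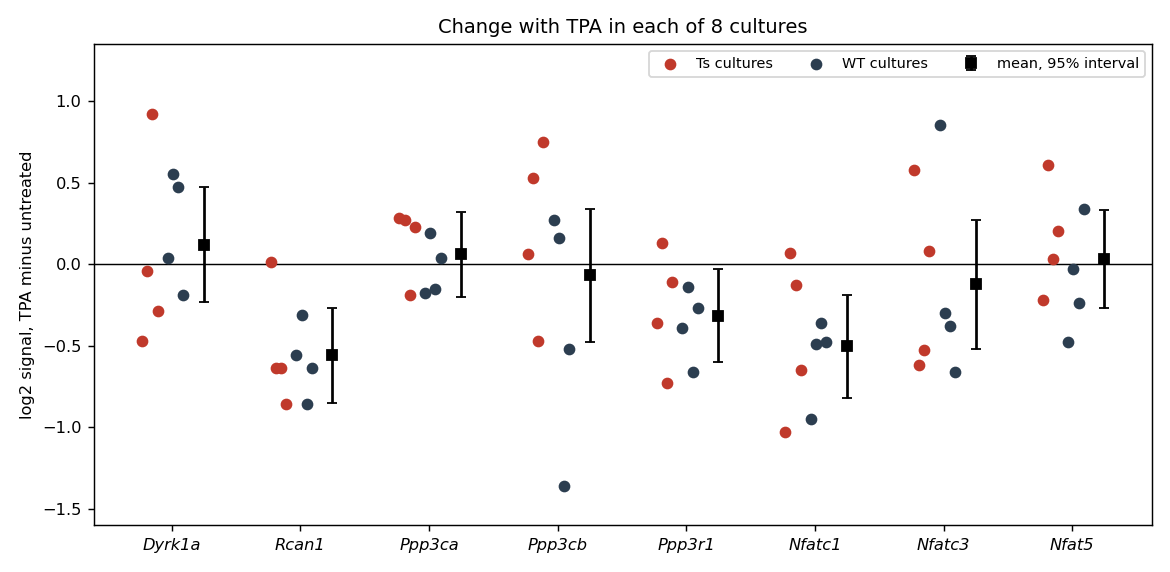
Change in log2 signal with TPA (TPA minus untreated, y axis) of the brightest probe of 8 genes in each of the 8 cultures, with Ts cultures in red at the left and WT cultures in dark blue at the right of each gene, and the mean over cultures with its 95% interval as a black square. *Rcan1* was at -0.56 and *Nfatc1* at -0.50 on average, each lower in 7 of 8 cultures, and *Dyrk1a* spread over both sides of 0.

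The rest of the pathway was described from lists of its genes, and 0 genes of these lists passed the test in any of the 5 comparisons (2 between genotypes, 2 of TPA within a genotype, and the difference in response). Of the regulators and ligands of calcineurin, 6 of 7 with a probe passed the filter, and in Ts-NT against WT-NT their median was -0.27 relative to that of all genes, with 4 of 6 below it and the same number lower at an unadjusted p under 0.05, against 12.9% of all genes. *Rcan3* averaged 8.10 in Ts-NT and 8.15 in WT-NT (adjusted p = 0.945), and 8.46 in Ts-TPA and 8.41 in WT-TPA (adjusted p = 0.930, limma). *Chp1* averaged 11.69 in Ts-NT and 11.86 in WT-NT (adjusted p = 0.754, limma). Calmodulin is the calcium sensor of calcineurin, and its genes were named after their values were seen. *Calm2* averaged 7.97 in Ts-NT and 9.17 in WT-NT (adjusted p = 0.319) and 8.03 in Ts-TPA and 9.28 in WT-TPA (adjusted p = 0.258, limma). *Calm3* averaged 8.45 in Ts-NT and 9.32 in WT-NT (adjusted p = 0.307), and 8.84 in Ts-TPA and 9.06 in WT-TPA (adjusted p = 0.796, limma). Its Ts-NT arrays all lay below its WT-NT arrays, as was the case for 7.26% of all genes. *Fkbp1a*, whose product FKBP12 carries the inhibitor FK506 to calcineurin, averaged 8.40 in Ts-NT and 9.07 in WT-NT (adjusted p = 0.313), and 8.76 in Ts-TPA and 9.51 in WT-TPA (adjusted p = 0.221, limma). Of the kinases and carriers that return NFAT to the cytoplasm or move it, 9 of 14 passed the filter and their median relative to that of all genes was -0.17 in Ts-NT and 0.07 in Ts-TPA, each against WT. *Csnk1d*, a casein kinase gene, averaged 10.21 in Ts-TPA and 10.64 in WT-TPA (adjusted p = 0.298, limma), and *Csnk1e*, a second one, 9.65 in Ts-TPA and 9.13 in Ts-NT (adjusted p = 0.362, limma). Genes of calcium entry and store release, with 7 of 15 past the filter, had a relative median of 0.00 between genotypes in untreated cells and 0.01 after TPA. *Orai1*, the pore of store-operated calcium channels, averaged 6.59 in Ts-NT and 7.01 in WT-NT (adjusted p = 0.411), and *Saraf*, a regulator of that channel, 11.68 in Ts-TPA and 12.17 in WT-TPA (adjusted p = 0.349, limma).

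Of the known targets of calcineurin and NFAT, 7 of 14 with a probe passed the filter, among them *Rcan1* itself. Between genotypes their median relative to that of all genes was -0.02 in untreated cells and -0.16 after TPA. With TPA it was -0.25 in Ts cells and -0.16 in WT cells, with 5 of 7 genes below the median of all genes in each. *Ptgs2*, which encodes cyclooxygenase 2 and answers to AP-1 and other factors as well, had the lowest p among the targets and lay on the other side from *Rcan1*. It averaged 7.72 in Ts-TPA and 6.92 in Ts-NT (adjusted p = 0.149) and 7.17 in WT-TPA and 6.87 in WT-NT (adjusted p = 0.485, limma). The cytokine targets *Il6*, *Tnf*, *Csf2*, *Il4* and *Fasl* were detected on no array, as were the immune markers, and *Il2* was not analysed here. Osmotic targets of NFAT5 passed the filter in 2 of 5 cases. *Slc6a6*, a taurine transporter gene, averaged 11.06 in Ts-NT and 11.37 in WT-NT (adjusted p = 0.484, limma), and *Slc38a2*, an amino acid transporter gene, 11.02 in Ts-NT and 11.41 in WT-NT (adjusted p = 0.516, limma).

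After the group means were taken off, the calcineurin subunit genes had a Pearson correlation over the 16 arrays of 0.67 between *Ppp3cb* and *Ppp3r1*, 0.64 between *Ppp3ca* and *Ppp3r1* and 0.40 between *Ppp3ca* and *Ppp3cb*. Each correlated more with other genes, *Ppp3r1* most with *Rap2c* (0.96), *Ppp3cb* with *Prkab1* (0.90) and *Ppp3ca* with *Nsf* (0.90). *Nfat5* followed *Ppp3r1* (0.69) and *Nfatc1* (0.67), and *Nfatc3* ran against *Nfatc1* (-0.59). *Dyrk1a* and *Rcan1* showed 0.06. These points share an array's background and hybridization, and arrays of the same number also shared deviations, so the values only describe these arrays. Of 6063 genes, those most like *Dyrk1a* were *Cox5b* (0.80), *Rps14* (0.76) and *Slc6a17* (0.76), and those most like *Rcan1* were *Rin3* (0.84), *Stc2* (0.83) and *Arl14ep* (0.82).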

How the data were processed

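Total RNA from 8 keratinocyte cultures, each with an untreated and a TPA array, was hybridized to MouseRef-8 v2.0 BeadChips by the study. The authors deposited 1 table of raw probe intensity with a detection p-value beside each signal, and 1 table of normalized log2 values (variance stabilized). The deposited p-values gave the detected arrays and their detection limits, and the filter, in which a probe was kept when either genotype had 4 or more of its 8 arrays with a p of at most 0.01 (8317 of 25697 probes, 6063 genes). Raw intensities were normalized anew by an arsinh model fitted per array in R 4.3.3 (variance stabilization, 0.9 of probes, 7 rounds, 10 strata). These values correlated at 0.958 to 0.9644 with those of the authors. Near background their scale is steeper than log2 of the raw signal, so changes of dim probes are larger on it. In WT-NT replicate 1, raw signals of 150.7 and 199.4 became 4.54 and 5.77, and 1316 and 2000 became 9.92 and 10.59. Probe symbols came from the platform annotation, updated by gene ID for 23962 probes, and 1719 probes had no single symbol. A gene was described by its brightest probe past the filter and called when any of its probes passed. limma 3.58.1 compared Ts-NT with WT-NT and Ts-TPA with WT-TPA on group means of 16 arrays, TPA with NT within a genotype with the culture as a block on 8 arrays, and the responses of both genotypes with 8 cultures as blocks. P-values were adjusted by Benjamini-Hochberg over 8317 probes, at a threshold of 0.05. The number of arrays limits the precision. No slide or scan date is given in the sources used here. Named genes were the 10 members, every called gene of each pathway list and otherwise the 2 of lowest p, and the 3 most correlated with a member. *Rcan3* and *Chp1* were named in addition, after their values were seen. Members and lists were chosen with earlier results of these data known. The tests were tried on simulated arrays with known changes in brighter probes. Those arrays held no deviations shared by replicate number across genotypes. The trial therefore does not check the genotype calls here, nor dim probes such as that of *Dyrk1a*.

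Arrays of the same replicate number deviated together across genotypes (correlations of 0.29 to 0.52 without TPA and 0.24 to 0.57 with TPA), so the number was also used as a block for the genotype comparisons. Alternatives were neqc and quantile normalization, the deposited normalized values, arrays centred on their median, other filters, the mean of a gene's probes, other blocks, and each replicate left out. Mean responses over both genotypes, also with the 4 numbers as units, were added after the data were seen.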

Additional observations from a re-analysis of the deposited data

Results flagged for a closer look

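*Rcan1* on WT-NT replicate 1 had a log2 signal of 8.59, apart from the other WT-NT arrays at 9.14 to 9.18, a gap of 0.931 of the group's range. It was the 1 array set apart among 32 groups of 4 arrays looked at (8 genes in 4 groups), where chance sets apart about 5% of groups.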

How the results depend on the processing

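No member passed the test in a genotype comparison, in the TPA response of Ts cells or in the difference in response under any alternative tried, and in WT cells 1 member did under quantile normalization (*Rcan1*, -0.40). The number of genes called in Ts-NT against WT-NT was 4, and 0 under neqc, with arrays centred, with no detection filter, with a filter on any 4 of 16 arrays, with the culture as a random block, or from the 8 arrays of both groups alone. It was 0 to 3 with 1 array left out, the 3 without Ts-NT replicate 1. In Ts-TPA against WT-TPA it was 1, and 0 under quantile normalization, with the authors' values, with arrays centred or from 8 arrays, 2 under neqc and 64 with no detection filter. It was 0 to 45 with 1 array left out, with 4 without Ts-TPA replicate 4 and 45 without Ts-TPA replicate 1. The TPA response gave 20 to 283 genes in WT cells with 1 culture left out (283 without culture 1, 61 without 2, 38 without 3 and 20 without 4), against 161, and 24 to 85 in Ts cells (32 without culture 2, 27 without 3 and 24 without 4), against 64. With arrays centred it gave 107 genes in Ts cells (73 higher and 34 lower) and in WT cells 101 higher and 38 lower; under neqc it gave 39 higher and 11 lower in Ts cells.

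The pairing of replicate numbers across genotypes moved the genotype counts most. With the replicate block, 94 genes were called in Ts-NT against WT-NT and 141 in Ts-TPA against WT-TPA. Combined with other normalizations, in fits added after the data were seen, the block gave 18 and 3 (neqc), 61 and 3 (quantile), 29 and 23 (authors' values) and 13 and 8 (arrays centred), untreated first. With no replicate block the TPA response gave 23 genes in WT and 26 in Ts cells. The block changed no call of a member within these comparisons, while the mean TPA responses of *Rcan1* and *Nfatc1* no longer passed with the 4 numbers as the units.

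Changes near 0 took the other sign in places. With no detection filter, the genotype change of untreated cells was -0.10 for *Rcan1* and -0.07 for *Nfatc1*, that after TPA was 0.00 for *Dyrk1a*, -0.02 for *Rcan1*, -0.04 for *Ppp3cb* and -0.13 for *Nfat5*, and the mean genotype difference of *Rcan1* was -0.07. *Dyrk1a* after TPA was -0.05 under neqc with or without the block. With the mean of a gene's probes, the genotype change after TPA was -0.06 for *Nfatc1* and -0.04 for *Nfat5*, the TPA response of *Ppp3ca* was -0.05 in Ts and 0.09 in WT cells, and the difference in response was -0.14 for *Ppp3ca* and -0.14 for *Nfatc1*. With arrays centred *Ppp3ca* in WT cells was 0.02, and the difference in response of *Nfatc3* was 0.03, as with the authors' values.

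With 1 array or culture left out, the genotype change of untreated cells ran from -0.13 to 0.11 for *Rcan1* and -0.08 to 0.34 for *Nfatc1*. After TPA it ran from -0.12 to 0.29 for *Dyrk1a*, -0.02 to 0.26 for *Rcan1*, -0.18 to 0.35 for *Ppp3cb* and -0.18 to 0.13 for *Nfat5*. The TPA response ran from -0.27 to 0.20 for *Dyrk1a* and -0.36 to 0.05 for *Nfatc3* in Ts cells, and from -0.09 to 0.03 for *Ppp3ca*, -0.44 to 0.06 for *Nfatc3* and -0.25 to 0.02 for *Nfat5* in WT cells. The difference in response ran from -0.12 to 0.17 for *Rcan1*, -0.04 to 0.25 for *Ppp3r1*, -0.03 to 0.33 for *Nfatc1* and -0.24 to 0.32 for *Nfatc3*. The mean TPA response ran from -0.02 to 0.21 for *Dyrk1a*, -0.18 to 0.09 for *Ppp3cb* and -0.05 to 0.09 for *Nfat5*, and the mean genotype difference from -0.07 to 0.17 for *Rcan1*. The causes of these shifts were not tested. The brightest probe was detected on 10 of 16 arrays for *Dyrk1a*, 13 for *Nfatc1* and 14 for *Nfatc3*. For *Rcan1*, *Ppp3ca*, *Ppp3cb*, *Ppp3r1* and *Nfat5*, which also changed sign in places, it was detected on all 16.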
